A study of Mus musculus with 10 samples.

Results

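The genes described here are 5 genes of red blood cells, chosen by name: the alpha globin genes Hba-a1 and Hba-a2, the beta globin genes Hbb-bs and Hbb-bt, and Alas2, the erythroid form of the first enzyme of heme synthesis. They are 5 of the 21959 genes of the expression table, and the question put to them was how much blood RNA the tumor pieces held. mRNA was sequenced from 10 tumors, 5 of an exercise group (E) and 5 of a non-exercise group (NE), with 1 library per tumor. Both groups were female BALB/c mice, 5 to 6 weeks old when obtained, that carried subcutaneous tumors of 4T1 cells, a mammary carcinoma line of the same strain. E had access to a running wheel for voluntary running, NE had none, and tumors were collected at 21 days. The model is 1 transplanted cell line in immune-competent hosts, so that host blood, vessels, immune cells and muscle can all enter a tumor piece. The labels name each sample as mammary cancer tissue, but Krt8 and Krt18, keratins of simple epithelia, were close to absent (0 to 27 and 2 to 48 reads per tumor), as was the surface protein Epcam (10 to 66 reads), while Krt19 (157 to 498 reads) and the epithelial cadherin Cdh1 (144 to 434 reads) were present.

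Hemoglobin is built from alpha and beta globin chains, each holding a heme group that binds oxygen. Red cell precursors in bone marrow and spleen transcribe the globin genes at very high levels, and in mice the reticulocytes released into the blood still carry globin mRNA for a time after losing their nucleus, so that globin reads in a solid tissue are commonly read as a measure of blood. Alas2 supplies heme to the same cells, whereas its relative Alas1 serves nearly all other cells. In a bulk piece, fewer cells of a type and less RNA per cell cannot be told apart.

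The alpha and beta genes each come as a pair of near-identical copies, which bears on how their reads can be divided. In GRCm38 (GENCODE), Hba-a1 lies on the forward strand of chromosome 11 from 32283511 to 32284465 and Hba-a2 from 32296489 to 32297298. On chromosome 7, Hbb-bs occupies the reverse strand between 103826534 and 103828096, and Hbb-bt between 103812524 and 103813996. Alas2 lies on the forward strand of chromosome X from 150547375 to 150570638 and has 11 exons, against 3 in each globin gene. The coding sequences of Hba-a1 and Hba-a2 have 426 bases without the stop codon and differ at 1 base, C381T, and those of Hbb-bs and Hbb-bt have 441 bases and differ at 1 base, C417T. Positions count from 1 at the first base of the start codon, with the base of Hba-a1 or Hbb-bs written first. Both differences lie in exon 3 at the third base of a codon. The stretches around them are shown because they are the only coding letters that separate the copies, with the differing base in capitals (coding positions 341 to 421 for alpha and 377 to 441 for beta).
Hba-a1: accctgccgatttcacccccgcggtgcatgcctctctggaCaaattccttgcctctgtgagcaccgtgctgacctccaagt
Hba-a2: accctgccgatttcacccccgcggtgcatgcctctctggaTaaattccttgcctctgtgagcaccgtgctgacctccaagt
Hbb-bs: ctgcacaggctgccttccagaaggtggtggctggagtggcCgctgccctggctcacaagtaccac
Hbb-bt: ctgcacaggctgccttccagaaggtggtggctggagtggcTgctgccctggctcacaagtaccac
Over the whole transcripts, 439 of the 650 stretches of 50 bases in Hba-a1 (67.5%) and of the 505 in Hba-a2 (86.9%) also occur in the other alpha gene. For the beta genes 381 stretches are shared, 65.8% of the 579 of Hbb-bs and 58.3% of the 654 of Hbb-bt. No stretch of an alpha gene occurs in a beta gene, and none of the 1988 stretches of Alas2 occurs in another gene. How reads that match both copies were assigned, or whether they were counted, is not given in the sources used here. The split within each pair is therefore uncertain, and if such reads were left out the alpha and beta totals would be too low. The alpha, beta and Alas2 counts come from separate sequence. BALB/c is also known to carry another beta globin haplotype than the reference strain, with genes named Hbb-b1 and Hbb-b2 in place of Hbb-bs and Hbb-bt. Neither name is in the table, and the part of this in the beta counts was not tested.

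The 250 bases before the RefSeq start of each of the 5 genes were searched on both strands for 4 short motifs. These were AGATAA or TGATAA (the letters bound by GATA factors), CACCC (bound by Klf factors), CCAAT and TATAA. All 5 genes matched the RefSeq promoter table (GRCm38.p6). The alpha promoters share a run of 247 bases, so that 1 of them is shown, beside that of Hbb-bs, with the motifs in capitals. The alpha window is chr11:32296242-32296491 on the forward strand and the beta window is chr7:103827929-103828178 on the reverse strand.
Hba-a2: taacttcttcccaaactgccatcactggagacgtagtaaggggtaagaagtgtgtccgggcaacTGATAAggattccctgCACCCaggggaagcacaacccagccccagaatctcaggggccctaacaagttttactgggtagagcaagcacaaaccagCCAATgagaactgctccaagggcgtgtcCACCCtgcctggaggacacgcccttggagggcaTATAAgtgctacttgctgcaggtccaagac
Hbb-bs: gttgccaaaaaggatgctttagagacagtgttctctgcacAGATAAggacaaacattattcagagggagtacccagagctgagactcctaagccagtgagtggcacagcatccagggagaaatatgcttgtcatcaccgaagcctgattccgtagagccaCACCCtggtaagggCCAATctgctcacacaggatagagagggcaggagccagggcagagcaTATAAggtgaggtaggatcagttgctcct
The GATA letters were in 4 of the 5 windows, that of Hbb-bt being the exception, and in 16.6% of all 32851 windows of the table. CACCC was in all 5 windows (52% of all windows), and CCAAT in 4, that of Alas2 being the exception (33.8% of all windows). TATAA was in all 5 windows (22.8% of all windows), but at unlike places. Each globin window had a match within bases -30 to -23 from the end of the window, and Alas2 only within -208 to -203. These matches describe letters and not bound sites.

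The total of counted reads per tumor was 15045613 to 20646763 in E and 18706032 to 23092251 in NE, and its log2 was lower in E (exact two-sided permutation test, p = 0.0397, 5 against 5). NE replicate 4 stood apart in skeletal muscle genes. The summed level of the muscle list was 30583 CPM (counts per 1000000 counted reads) there, against 6.80 to 4473 CPM in the other 9 tumors. The main values are therefore also given without NE replicate 4. Summed levels of lists are not scaled between libraries, whereas log2(CPM + 1) values are. Acta1, the alpha actin of muscle fibers, had 38 to 141791 reads. The log2 fold changes of the 11 muscle genes tested were all below 0, with a median of -2.41, and none passed. This direction came from NE replicate 4, since without it all 11 were above 0, with a median of 1.04 (smallest FDR 0.883).

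Counted hemoglobin reads were rare in all 10 tumors, and the amount spanned a wider range within NE than within E. Reads that match both copies of a pair may be missing from these counts, so that the shares may be too low. The 4 globin genes took 4337 reads over all tumors, 1564 in E and 2773 in NE. As a share of all counted reads they ranged from 0.000678% in NE replicate 5 (95% Wilson interval 0.000576% to 0.000798%) to 0.00560% in NE replicate 4 (0.00530% to 0.00591%), an 8.25-fold span. Within E the share spanned 2.94-fold, from 0.000987% in replicate 4 to 0.00290% in replicate 5. The mean share in E was 0.00173% ± 0.000712 (SD, n = 5), against 0.00246% ± 0.00205 (SD, n = 5) in NE. Without NE replicate 4 the NE mean was 0.00167% ± 0.00123 (SD, n = 4), just below that of E, and the span within NE, as over all 9 tumors, was 4.96-fold. With all 10 tumors NE held the lowest and the highest values, and E lay between them. These intervals cover counting error only, since copies made by PCR could not be separated from the molecules they came from.

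Hba-a1, which encodes the alpha chain, had 98, 102, 95, 54 and 147 reads in E replicates 1 to 5, or 5.85, 6.74, 5.68, 3.59 and 12.0 FPKM (reads scaled by gene length and by the total of the library). In NE replicates 1 to 5 it had 261, 53, 155, 436 and 52 reads, or 13.9, 3.49, 8.40, 23.4 and 2.99 FPKM. The E tumors averaged 6.78 ± 3.16 FPKM and the NE tumors 10.4 ± 8.48 FPKM (SD, n = 5 each), and the range of E lay within that of NE. The 4 NE tumors other than replicate 4 averaged 7.20 ± 5.10 FPKM.

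By counted reads Hba-a2, the second alpha gene, was at or near the detection limit. It had 0, 3, 2, 0 and 2 reads in E and 0, 0, 0, 5 and 0 reads in NE, with 12 of the 1465 alpha globin reads in all. In the 6 tumors without a read, 3 reads would have been 0.130 to 0.162 CPM. The most reads were again in NE replicate 4, at 0.327 FPKM. With at most 3 reads in 9 of 10 tumors no fold is given for it. Of its stretches 86.9% also occur in Hba-a1, and the part of read assignment in its low count was not tested.

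Hbb-bs, which encodes a beta chain, was the highest of the 5 genes in each tumor per length. It had 184, 197, 209, 120 and 260 reads in E, or 11.6, 13.8, 13.2, 8.42 and 22.5 FPKM. In NE it had 459, 92, 234, 754 and 86 reads, or 25.9, 6.40, 13.4, 42.8 and 5.24 FPKM. The E tumors averaged 13.9 ± 5.24 FPKM and the NE tumors 18.7 ± 15.7 FPKM (SD, n = 5 each), and the medians 13.2 and 13.4 FPKM lay close together. Without NE replicate 4 the NE mean was 12.7 ± 9.48 FPKM (SD, n = 4), below that of E, so that the order of the group means turned on that tumor. From low to high the tumors stood in the order NE replicates 5 and 2, E replicates 4, 1 and 3, NE replicate 3, E replicates 2 and 5, and NE replicates 1 and 4. Wilson intervals of neighbors in this order overlapped in 7 of 9 pairs, and the exceptions were E replicate 2 below E replicate 5 and NE replicate 1 below NE replicate 4.

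Hbb-bt, the second beta gene, had 18, 15, 21, 9 and 28 reads in E (1.24, 1.14, 1.45, 0.690 and 2.65 FPKM). In NE it had 56, 11, 23, 89 and 7 reads (3.45, 0.836, 1.44, 5.52 and 0.466 FPKM). Their means were 1.43 ± 0.733 FPKM for E and 2.34 ± 2.12 FPKM for NE (SD, n = 5 each), and the same NE tumors, replicates 4 and 1, were highest. Leaving out NE replicate 4 brought the NE mean to 1.55 ± 1.33 FPKM (SD, n = 4). Hbb-bs exceeded Hbb-bt by 7.50 to 12.2 times in FPKM, within the uncertainty of the split between copies.

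Alas2, which makes the first precursor of heme in red cell precursors, had 15, 21, 11, 8 and 9 reads in E and 32, 6, 18, 47 and 6 reads in NE. In FPKM these were 0.302, 0.469, 0.222, 0.179 and 0.249 in E and 0.577, 0.133, 0.330, 0.852 and 0.117 in NE. Means were 0.284 ± 0.112 FPKM for E and 0.402 ± 0.313 FPKM for NE (SD, n = 5 each), or 0.289 ± 0.215 FPKM for the 4 NE tumors other than replicate 4. At these counts the Wilson intervals overlapped in all 9 pairs of neighboring tumors. NE replicate 5 was lowest and NE replicate 4 highest, as for Hba-a1, Hbb-bs and Hbb-bt.

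**Figure D1:**
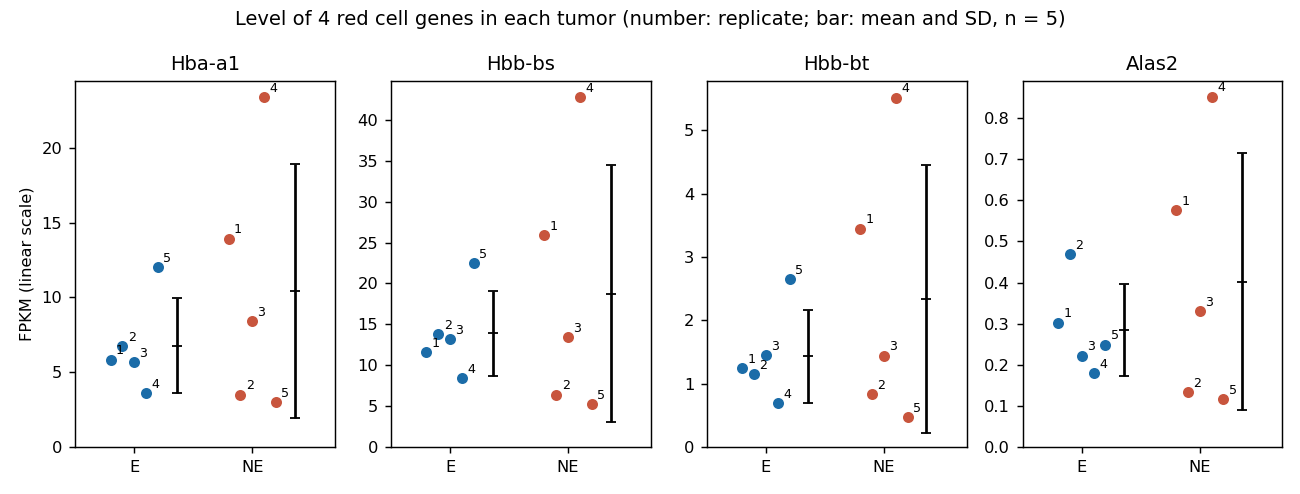
FPKM (linear scale from 0) of Hba-a1, Hbb-bs, Hbb-bt and Alas2 in each of the 5 E and 5 NE tumors, with replicate numbers beside the points and the mean and SD of each group in black. In each panel NE replicate 4 is highest (42.8 FPKM for Hbb-bs), NE replicate 5 is lowest (5.24 FPKM for Hbb-bs), and the E tumors lie between.

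The comparison of E with NE asked whether tumors of running mice differed in blood RNA, and none of the genes passed. In edgeR's quasi-likelihood test over 13517 genes, 4 of the 5 genes were tested and Hba-a2 fell below the filter on low counts. None was called at a false discovery rate (FDR) of at most 0.05 with a fold change of at least 2, nor was any other gene (0% of genes tested). DESeq2 called 0 genes by the same rule, and 2 genes passed its FDR without the fold threshold, Ide (log2 fold change -0.26, FDR 0.000451) and Rbm12b1 (-0.58, FDR 0.00921), named after their values were seen. None of the 4 reached an unadjusted p of at most 0.05, against 657 genes or 4.86% of those tested. The log2 fold change of Hba-a1 was -0.67 (SE 0.558, FDR 0.897). That of Hbb-bs was -0.48 (SE 0.546, FDR 0.913), and that of Hbb-bt -0.76 (SE 0.633, FDR 0.897). Alas2 had a log2 fold change of -0.54 (SE 0.545, FDR 0.898). All 4 values were below 0, as were those of 54% of all genes tested.

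The size of these values depended on 1 tumor and on the method. Without NE replicate 4, the tumor rich in muscle genes, the log2 fold change was -0.11 for Hba-a1, 0.10 for Hbb-bs, -0.15 for Hbb-bt and -0.055 for Alas2, so that Hbb-bs changed sign. Leaving out any other tumor kept all 4 values between -1.08 and -0.34. With the muscle score as a covariate and all 10 tumors kept, the values were -0.64, -0.44, -0.73 and -0.56 in the same order. With depth as a covariate Alas2 moved to 0.17. By limma-trend on log2(FPKM + 1) the values were -0.31, -0.084, -0.28 and -0.10, and with replicate number as a block in edgeR they were -0.35, -0.095, -0.40 and -0.30. On the single-gene scale, the difference in mean log2(CPM + 1), E minus NE, was -0.33 for Hba-a1 (exact two-sided permutation test over all assignments of 5 and 5 tumors, p = 0.563), 0.045 for Hba-a2 (exact p = 0.524) and -0.12 for Hbb-bs (exact p = 0.849). It was -0.28 for Hbb-bt (exact p = 0.508) and -0.17 for Alas2 (exact p = 0.556). Of the 25 pairings of an E with an NE tumor, E was higher in 11 for Hba-a1, Hbb-bt and Alas2 and in 12 for Hbb-bs. With SEs of 0.545 to 0.633 on the log2 scale, differences of that order were not detectable with 5 tumors a group.

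**Figure D2:**
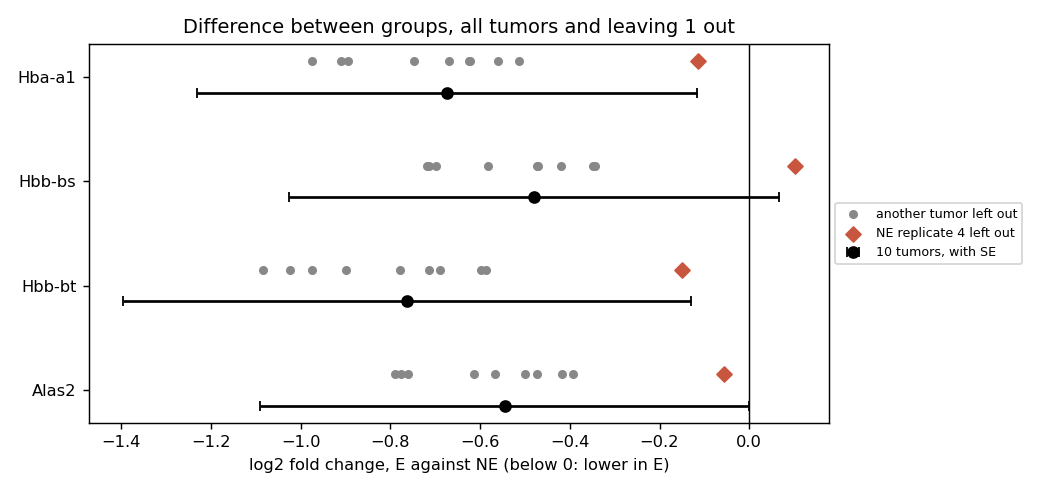
log2 fold change of E against NE (horizontal axis, below 0 for lower in E) for Hba-a1, Hbb-bs, Hbb-bt and Alas2, from all 10 tumors with SE in black and with 1 tumor left out in gray, or as a red diamond for NE replicate 4. The values of all tumors lie between -0.76 and -0.48, and without NE replicate 4 they lie between -0.15 and 0.10.

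The spread between tumors was wide for these genes. The SD of log2(CPM + 1) over the 10 tumors was 0.850 for Hbb-bs, wider than that of 96.7% of the 13517 genes tested, and 0.829 for Hba-a1 (wider than 96.5%). It was 0.596 for Hbb-bt (93.4%) and 0.405 for Alas2 (85.6%), whereas the median gene had 0.179. These percentages are over genes of every level. Hbb-bt had 7 to 89 reads and Alas2 6 to 47, and counting error was not separated from their spread. By mean FPKM the same genes stood at rank 3318 (Hbb-bs), 5629 (Hba-a1), 10220 (Hbb-bt) and 12611 (Alas2) of 13517.

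The 4 genes moved together from tumor to tumor. Over the 10 tumors Hbb-bs and Hba-a1, which share no stretch of sequence, had Pearson's r = 0.984 (permutation p = 1e-05, the smallest that 100000 permutations can give; Benjamini-Hochberg adjusted over 13 relations, 0.00013) and Spearman's rho = 0.976 (permutation p = 1e-05). Hbb-bs and Hbb-bt had r = 0.973 (permutation p = 5e-05, adjusted 0.000325) and rho = 0.903 (permutation p = 0.00105). This second pair shares 65.8% and 58.3% of its stretches, and the part of reads assigned between the copies was not tested. Without the 2 tumors farthest from the median of Hbb-bs, NE replicates 4 and 5, r was 0.969 for Hba-a1 (permutation p = 0.0005, adjusted 0.0065) and 0.942 for Hbb-bt (permutation p = 0.00121, adjusted 0.00786). Over these 8 tumors rho was 0.952 for Hba-a1 (permutation p = 0.00098, adjusted 0.0127) and 0.810 for Hbb-bt (permutation p = 0.0216, adjusted 0.0956), so that the rank relation of Hbb-bt no longer passed.

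Alas2 followed Hbb-bs less closely, with r = 0.887 (permutation p = 0.00068, adjusted 0.00295) and rho = 0.903 (permutation p = 0.0009). Without NE replicates 4 and 5 its r was 0.714 (permutation p = 0.0441, adjusted 0.191), and without NE replicate 4 alone 0.783 (permutation p = 0.0126, adjusted 0.0546), so that the relation rested in part on those tumors. E replicate 5 had the third highest Hbb-bs level but only 9 reads of Alas2, and the ratio of Hbb-bs to Alas2 in FPKM was 90.4 there, against 29.4 to 59.4 in the other 9 tumors. For Hba-a2, with its few reads, r was 0.677 (permutation p = 0.0293, adjusted 0.0761).

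**Figure D3:**
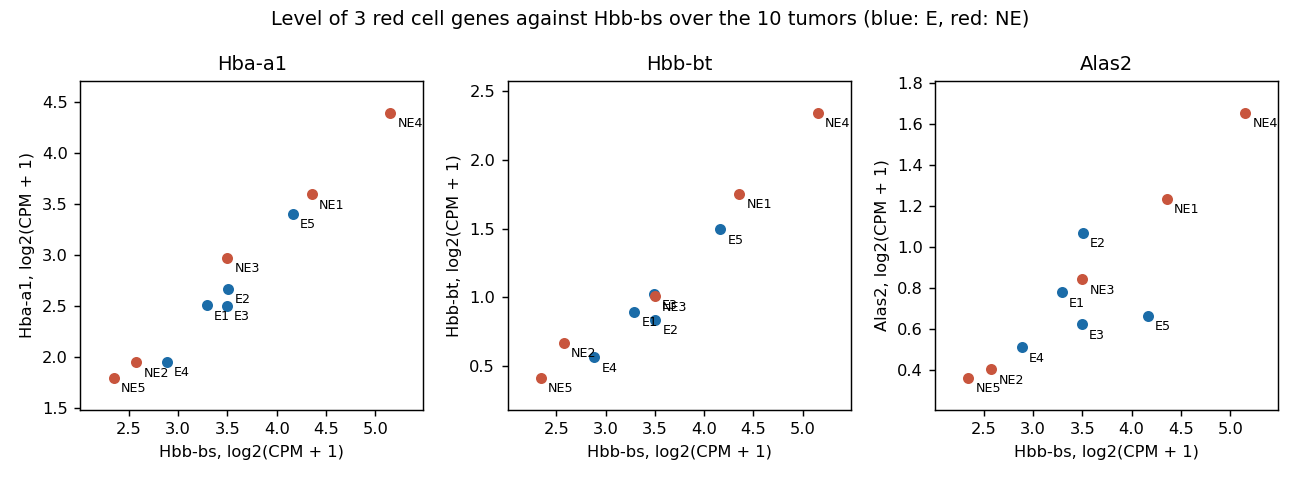
Level of Hba-a1, Hbb-bt and Alas2 (vertical axes) against that of Hbb-bs (horizontal axis), all as log2(CPM + 1), with 1 point per tumor (blue E, red NE). The points of Hba-a1 and Hbb-bt lie near a line (r of 0.984 and 0.973), and those of Alas2 scatter more (r of 0.887), with E replicate 5 lowest relative to Hbb-bs.

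The ratio of beta to alpha globin RNA varied less between tumors than the amount of globin reads, which was not tested. Per length, the beta genes together exceeded the alpha genes by 1.77 to 2.54 times in FPKM, although the total of globin reads varied from 145 to 1284. Reads that match both copies of a pair may be missing from either total, and their part in this excess was not tested. The ratio of Hbb-bs to Hba-a1 was 1.99, 2.04, 2.33, 2.35 and 1.87 in E replicates 1 to 5 and 1.86, 1.84, 1.60, 1.83 and 1.75 in NE replicates 1 to 5. The E ratios averaged 2.11 ± 0.213 and the NE ratios 1.77 ± 0.108 (SD, n = 5 each), and the groups did not overlap, by the narrow gap between E replicate 5 (1.87) and NE replicate 1 (1.86). This pattern was seen in the values and was not tested, and it depends on the split between copies: the ratio of both beta genes to both alpha genes overlapped, with 2.06 to 2.54 in E and 1.77 to 2.11 in NE. For single gene levels, not ratios, 0.725% of all genes tested did not overlap between the groups.

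No embryonic globin was detected. The embryonic genes Hba-x, Hbb-y, Hbb-bh1 and Hbb-bh2 and the theta globins Hbq1a and Hbq1b had no read in any tumor, where 3 reads would be 0.130 to 0.199 CPM. Myoglobin (Mb), the oxygen store of muscle, had 5 to 4497 reads and was highest in NE replicate 4. In E it had 32 to 433 reads, and in the NE tumors other than replicate 4 it had 5 to 292. Cytoglobin (Cygb), a globin of fibroblast-like cells, had 34 to 569 reads, and neuroglobin (Ngb) had 2 to 13. The log2 fold change was -2.36 for Mb (SE 1.47, FDR 0.897) and 0.028 for Cygb (SE 0.655, FDR 0.998), and neither passed.

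The red cell membrane list held genes near 0, genes at low counts and genes that other cells share. Slc4a1, the anion exchanger band 3, had 0 to 3 reads per tumor. The membrane protein Epb42 had 0 to 2 reads and the Rh-associated Rhag 0 to 3, while Kel and Icam4 had none. At low counts were Rhd (2 to 14 reads), Ermap (6 to 19), Add2 (10 to 39), Dmtn (18 to 39) and Xk (13 to 92). Their r with Hbb-bs, given as a description, ran from 0.240 (Ermap) to 0.796 (Rhd). Of the 18 genes of this list 11 had at least 10 reads in some tumor, and the highest by FPKM were Aqp1, a water channel of red cells and endothelium (mean 21.0 FPKM), Gypc (13.8 FPKM) and Epb41 (5.58 FPKM), which other cells also express. None of the 10 tested passed, with a median log2 fold change of -0.24 against -0.014 for all genes tested. The summed level of the list was 180 to 218 CPM in E, and 176 to 195 CPM in NE apart from 430 CPM in NE replicate 4. A count near 0 need not mean absence in this table: Tnnc2, a muscle gene, had 0 to 3 reads although Acta1 and Tnnt3 had 141791 and 73411 reads in NE replicate 4, and the widely expressed Gpx1 had 10 to 24 reads in every tumor. In NE replicate 4 Sptb, Ank1 and Tmod1, which muscle also uses, were highest (1223, 1561 and 1029 reads).

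Several regulators and markers of red cell precursors were scarce too, and others of the same lists were not. The master factor Gata1 had 1 to 16 reads per tumor, Klf1, the activator of adult beta globin, 1 to 8, and Gfi1b 0 to 8. Tspo2 had no read, Trim58, a ubiquitin ligase of late erythroblasts, 0 to 1, and Trim10 0 to 3. The red cell enzymes Car1 (0 to 9 reads) and Pklr (0 to 1) were near 0 too, and Hemgn, a nuclear protein of precursors, had 1 to 10 reads. Others of these lists had more: Tal1 had 17 to 52 reads, Nfe2 11 to 52 and Epor 21 to 58. Zfpm1 had 151 to 411 reads, Kit 268 to 468 and Bpgm, of the late erythroid list, 279 to 760. Genes of these lists with high levels are used by many cells: Ldb1 (mean 20.9 FPKM), the transferrin receptor Tfrc (19.5 FPKM) and Lmo2 (6.95 FPKM) among the regulators, Bnip3l (50.4 FPKM), Slc25a37 (40.9 FPKM) and Mkrn1 (16.5 FPKM) among late erythroid genes, and Prdx2 (53.9 FPKM), Cat (28.7 FPKM) and Blvrb (10.1 FPKM) among the enzymes. None of the 9 regulators, 8 late erythroid genes and 6 enzymes tested passed the FDR. Their median log2 fold changes were 0.076, -0.11 and -0.0076. Of these genes 1, the carbonic anhydrase Car2, had an unadjusted p of at most 0.05 (log2 fold change 0.70, SE 0.282, FDR 0.897), against 4.86% of all genes tested. Car2 did not reach that p without NE replicate 4 (0.55, SE 0.246) or without E replicate 5 (0.65, SE 0.310).

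**Figure D4:**
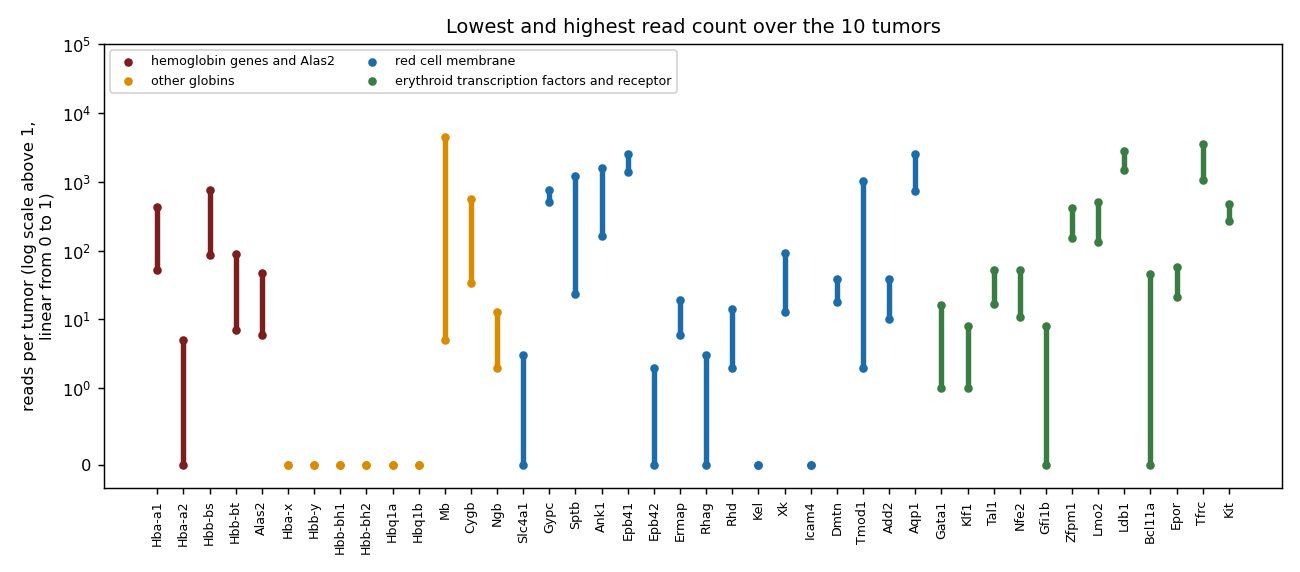
Lowest and highest read count per tumor over the 10 tumors (vertical axis, log scale above 1 and linear from 0 to 1) for the hemoglobin genes and Alas2, the other globins, genes of the red cell membrane list and the erythroid transcription factors and receptor genes. Hbb-bs (86 to 754 reads) and Hba-a1 (52 to 436 reads) stand far above the red cell membrane genes Slc4a1 and Rhag (at most 3 reads) and the regulators Gata1 and Klf1 (at most 16 reads).

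Heme synthesis outside Alas2 was even across tumors. Alas1, the form used by most cells, had a mean of 11.0 FPKM against 0.343 FPKM for Alas2. All 13 genes of the list were tested and none passed, with a median log2 fold change of 0.0059. The highest were the mitochondrial membrane protein Tmem14c (67.2 FPKM), the iron carrier Slc25a37 (40.9 FPKM) and Alad (15.1 FPKM), an early enzyme of the pathway. The score of the list (mean log2(CPM + 1)) had r = 0.123 with Hbb-bs (permutation p = 0.737, adjusted 0.799).

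Of the 11 genes that clear hemoglobin and heme, 3 had a mean well above that of Hbb-bs (16.3 FPKM). Hmox1, which opens the heme ring, had a mean of 59.3 FPKM, Lrp1, which takes up heme bound to hemopexin, 39.6 FPKM and the heme transporter Slc48a1 27.0 FPKM. Hmox2, the other heme oxygenase, and the haptoglobin gene Hp had means close to that of Hbb-bs, 16.5 and 16.4 FPKM, and the other 6 had 0.194 to 11.3 FPKM. Between tumors Hp ranged from 0.593 to 53.2 FPKM, whereas Hmox2 ranged from 14.1 to 17.6 FPKM. None of the 11 genes tested passed the FDR, with a median log2 fold change of 0.023, and 2 had an unadjusted p of at most 0.05 (4.86% of all genes tested did), in opposite directions. These were the iron exporter Slc40a1 (log2 fold change 0.66, SE 0.264, FDR 0.897) and the heme exporter Flvcr1 (log2 fold change -0.21, SE 0.0937, FDR 0.897), named after their values were seen. Without NE replicate 4 the values were 0.58 and -0.16, and without E replicate 5 they were 0.57 and -0.20. In neither case did these genes reach that p. Hmox1 did not track Hbb-bs closely (r = 0.104 over 10 tumors, given as a description), nor did Cd163, the macrophage receptor for haptoglobin-bound hemoglobin (r = 0.0317).

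Other cells that blood and vessels bring were compared with Hbb-bs. The endothelial score had r = 0.674 (permutation p = 0.0358, adjusted 0.0775; rho 0.527), which fell to 0.553 without NE replicates 4 and 5. Its highest genes were Pecam1 (11.8 FPKM), Cdh5 (8.42 FPKM) and Tie1 (1.95 FPKM), and its values were highest in NE replicate 4 and E replicate 5, both high in Hbb-bs. The red cell membrane score had r = 0.713 (permutation p = 0.0203, adjusted 0.066), and 0.0606 without those 2 tumors, so that this relation rested on them. The muscle score had r = 0.311 (permutation p = 0.381, adjusted 0.619) and -0.540 without the 2 tumors. NE replicate 1, with the second highest Hbb-bs level, had the lowest sum of muscle genes, 6.80 CPM.

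The platelet score had no relation to Hbb-bs that passed, though 8 of its 12 genes had under 10 reads in every tumor. Its r was 0.130 with Hbb-bs (permutation p = 0.719, adjusted 0.799). The other 4 were the chemokines Pf4 (37.9 FPKM) and Ppbp (2.58 FPKM), the integrin Itga2b (0.543 FPKM) and Gp1ba (0.322 FPKM). Gp1ba alone had r = 0.722 with Hbb-bs, given as a description. Gp1bb had no read and Gp9 0 to 2. Of the 4 tested, Pf4 (log2 fold change 0.72, SE 0.294) and Itga2b (0.52, SE 0.189) had an unadjusted p of at most 0.05, with an FDR of 0.897 for both (4.86% of all genes tested reached that p). Pf4 had 1006 reads in E replicate 5 against 452 to 596 in the other E tumors, and without that tumor its log2 fold change was 0.34 (SE 0.164). The neutrophil (r = 0.370, adjusted 0.542), B cell (r = 0.259, adjusted 0.682) and macrophage or monocyte scores (r = -0.0903, adjusted 0.801) and the log2 total count (r = 0.181, adjusted 0.798) had no relation to Hbb-bs that passed the permutation test. The highest genes of these lists were Mmp9, S100a9 and S100a8 (37.7, 23.4 and 12.7 FPKM), Cd79b, Pax5 and Cd79a (1.17, 0.735 and 0.472 FPKM), and C1qb, C1qa and Cd68 (290, 273 and 117 FPKM). None of the genes in the endothelial, platelet, neutrophil, B cell or macrophage lists passed the FDR, with median log2 fold changes of -0.063, 0.30, 1.25, -0.11 and 0.12. Of the 7 neutrophil genes tested 3 had an unadjusted p of at most 0.05, against 4.86% of all genes tested: Mmp9 (log2 fold change 1.25), S100a8 (2.77) and S100a9 (2.96). For S100a8 and S100a9 this came from E replicate 5, with 1057 and 1488 reads against 27 to 49 and 28 to 99 in the other E tumors, and without it the values were -0.30 and -0.15. That of Mmp9 was then 1.12 (SE 0.537). Of the 3 epithelial genes tested 2 had an unadjusted p of at most 0.05 and were lower in E, with an FDR of 0.897. These were Krt19 (log2 fold change -0.65, SE 0.199) and Epcam (-1.01, SE 0.387), while Cdh1 had 0.16 (SE 0.347). Without NE replicate 4 Epcam had -0.90 (SE 0.412) and no longer reached that p, whereas Krt19 did.

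**Figure D5:**
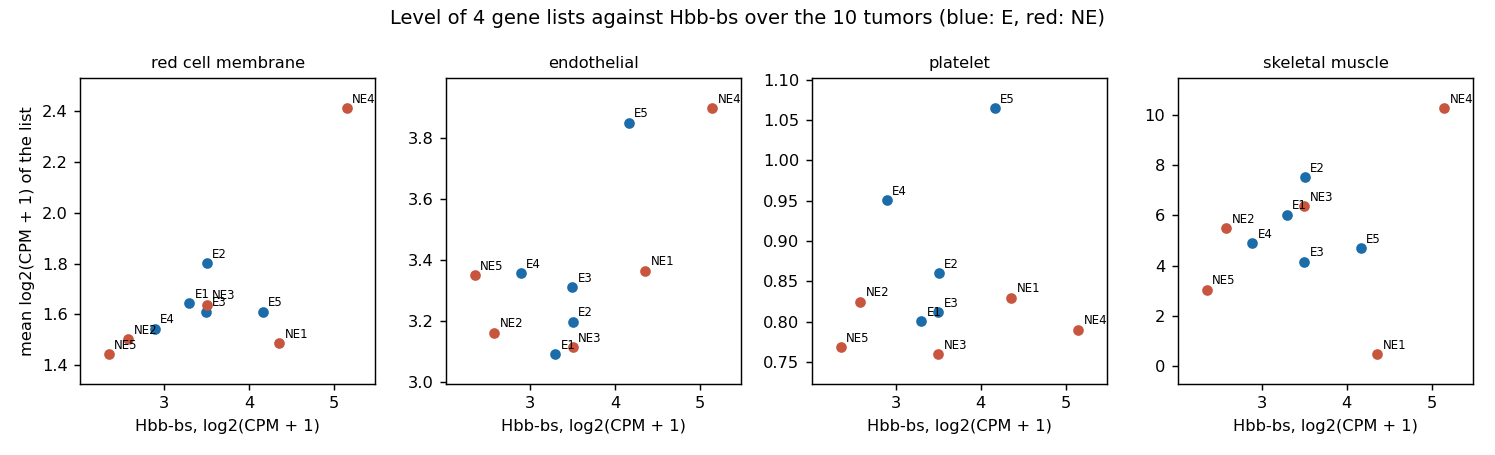
Score of the red cell membrane, endothelial, platelet and skeletal muscle lists (mean log2(CPM + 1), vertical axes) against the level of Hbb-bs as log2(CPM + 1), with 1 point per tumor (blue E, red NE). NE replicate 4 is highest in Hbb-bs, membrane and muscle score, while NE replicate 1, the next in Hbb-bs, has the lowest muscle score.

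Among the 13516 other genes tested, those whose level over the 10 tumors was most like that of Hbb-bs were Hba-a1 (rank 1) and Hbb-bt (rank 2), with Alas2 at rank 7. Apart from these, the nearest by Pearson's r of log2(CPM + 1) were Rnf166 (0.906), Zfp651 (0.901), the water channel Aqp1 (0.896) and Mapk12 (0.891). Mavs (0.885), Tef (0.880), Camkk1 (0.877), Emc9 (0.877), Nr1d1 (0.877) and Mtss2 (0.876) followed. The step from Hbb-bt (0.973) to Rnf166 was wider than any among these 10. Aqp1 had 14.3 FPKM in NE replicate 5 and 42.5 FPKM in NE replicate 4, whereas Rnf166 spanned only 9.26 to 14.3 FPKM. For Alas2 the nearest were Slc25a42 (0.937), Ttc9 (0.926), Mavs (0.922), Zfp637 (0.922) and Ttc7b (0.915), while Hba-a1 stood at rank 20, Hbb-bs at rank 21 and Hbb-bt at rank 42.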

How the data were processed

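Tumor RNA of 10 mice was made into paired-end libraries and sequenced. The study's methods give Hisat2 for alignment and Stringtie for expression. The methods name a rat assembly, while all 21959 genes carry mouse Ensembl identifiers. The authors deposited a raw whole-number read count and an FPKM per gene and tumor. How the counts were made, and the build of the table's coordinates, are not given in the sources used here. Dividing each count by gene length and library total returns the deposited FPKM (largest relative deviation 3.78e-14), which therefore hold no TMM factor.

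From the counts, edgeR 4.0.16 in R 4.3.3 was run (TMM, filterByExpr by group, quasi-likelihood test, Benjamini-Hochberg over 13517 genes) without a block (the study speaks of matched pairs without saying how they were made), and checked on simulated data. CPM of single genes, and the scores made from them, include the TMM factor. Summed CPM of lists, Wilson intervals and the CPM of 3 reads do not. Single genes were compared with exact two-sided permutation tests on log2(CPM + 1), and correlations with 100000 permutations (Python 3.11.15, numpy 2.4.6, scipy 1.17.1). Labels say nothing more of replicates than 1 sample per number, and p-values measure the spread between these samples. Alternatives were DESeq2 1.42.0, limma-trend (limma 3.58.1) on log2(FPKM + 1) and log2(FPKM + 0.1), library size without TMM, other filters, covariates, a block on replicate number, other thresholds, CPM with a pseudocount of 0.1, and leaving out each tumor. The group means, muscle list and list genes without NE replicate 4 or E replicate 5 were added after seeing the data.

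Depth was 15045613 to 23092251 counted reads per tumor, so that 3 reads, the floor for a count of 0, are 0.130 to 0.199 CPM. Named genes were the 5 genes, the other globins, the highest 3 by FPKM of each list, any gene called by FDR, and the 10 and 5 genes most like Hbb-bs and Alas2; low or undetected list genes and those singled out at an unadjusted p were named after their values were seen. The genes and lists were chosen with earlier results of these data known. Ahsp, Hbb-bh0, Hbb-b1, Hbb-b2, Ighm and Ighd were not analysed here, and some genes of the lists are not reported here.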

Additional observations from a re-analysis of the deposited data

Results flagged for a closer look

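In 48 sets of 5 tumors (levels of the 5 genes, globin shares and ratios, and summed levels of 14 gene lists, in each group), 9 values lay apart from the other 4 tumors of their group by a gap of more than 0.71 of the range. For independent, normally distributed values chance gives about 1 in 20 such sets. The values here are on a linear scale and the sets share tumors, so the 9 are not compared with that share. NE replicate 4 held 4 of the 9. Its Hba-a2 level was 0.327 FPKM, from 5 reads, with 0 in the other NE tumors. Its summed level was 221 CPM for the other globins, where Mb had 4497 reads, 430 CPM for the red cell membrane list and 30583 CPM for skeletal muscle. E replicate 2 was highest in E for muscle (4473 CPM). E replicate 5 was highest in E for platelet (77.7 CPM), endothelial (249 CPM) and hemoglobin and heme clearance genes (1386 CPM). NE replicate 5, the tumor lowest in Hbb-bs, was highest in NE for the epithelial list (47.1 CPM). No level of Hba-a1, Hbb-bs, Hbb-bt or Alas2 and no share or ratio of globin reads lay apart by this measure.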

How the results depend on the processing

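No gene was called under any of the 9 other fits or without any 1 tumor (0 to 0). An unadjusted p of at most 0.05 was reached by 657 genes, 56 of them with a fold change of at least 2. These counts were 782 and 250 with no filter, 846 and 124 in DESeq2, 122 and 12 with the total count as a covariate and 1074 and 71 with the muscle score, 663 and 27 at 10 counts in every tumor, and 644 and 8 or 647 and 17 in limma-trend with a pseudocount of 1 or 0.1. The log2 fold changes stayed below 0 and unpassed, except for Alas2 with the total count as a covariate (0.17) and Hbb-bs without NE replicate 4 (0.10).

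Leaving out 1 tumor, log2 fold changes ranged from -0.97 to -0.11 (Hba-a1), -0.72 to 0.10 (Hbb-bs), -1.08 to -0.15 (Hbb-bt) and -0.79 to -0.055 (Alas2). Differences in mean log2(CPM + 1) ranged from -0.62 to 0.031 (Hba-a1), 0.018 to 0.10 (Hba-a2), -0.43 to 0.27 (Hbb-bs), -0.48 to 0.00095 (Hbb-bt) and -0.30 to 0.019 (Alas2). The r with Hbb-bs ranged from 0.971 to 0.989 (Hba-a1), 0.414 to 0.842 (Hba-a2), 0.953 to 0.983 (Hbb-bt), 0.783 to 0.963 (Alas2), -0.154 to 0.373 (platelet), 0.420 to 0.759 (endothelial), 0.296 to 0.538 (neutrophil), -0.0453 to 0.504 (B cell), -0.407 to 0.544 (macrophage or monocyte), -0.251 to 0.744 (muscle), 0.324 to 0.866 (red cell membrane), 0.0149 to 0.235 (heme synthesis) and -0.0810 to 0.616 (total count). Hba-a2 and the membrane score passed only without NE replicate 1 (0.842 and 0.866, permutation test, adjusted p = 0.00962 for both).

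Without the 2 farthest tumors r was 0.714 for Alas2, -0.0582 for B cell, -0.540 for muscle and -0.0533 for heme synthesis. With a pseudocount of 0.1 r was -0.0333 for platelet and -0.158 for heme synthesis. The causes were not tested.

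With the replicate number as a block (replicate block) the log2 fold changes were -0.35 (Hba-a1), -0.095 (Hbb-bs), -0.40 (Hbb-bt) and -0.30 (Alas2), with 0 genes called. Same-numbered tumors deviated together with r of -0.325 to 0.316, and neither labels nor methods say how the tumors were matched, so the numbers were not treated as pairs. Chosen after seeing the data, the muscle list had a median of 1.04 without NE replicate 4, and the log2 fold changes of S100a8 and S100a9 were -0.30 and -0.15 without E replicate 5 and 3.22 and 3.31 without NE replicate 4. Counts of 6 to 47 (Alas2) and 0 to 5 (Hba-a2) limit both genes, and at 10 counts in every tumor Hbb-bt and Alas2 gave no value. Hba-a2 had 0.73 in DESeq2 (SE 2.25, FDR 0.996) and 0.65 with no filter (SE 1.26, FDR 0.937), and no value in the other fits.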
